A study of Mus musculus with 8 samples.

Results

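The genes described here encode enzymes of cholesterol synthesis and the proteins that control it. They were 7 genes chosen by symbol, Hmgcs1, Idi1, Fdft1, Sqle, Cyp51, Srebf2 and Insig1, of 25157 genes that could be joined over the deposited tables. Of the 7, 6 passed the filter on low values, as did 11232 of all genes, and Idi1 did not. RNA was sequenced from sorted C57BL/6 microglia, the resident macrophages of the brain, in 8 libraries. Both genotypes carried floxed Prmt1, the gene of a protein arginine methyltransferase, and the PRMT1Cx3cr1-KO mice also carried a tamoxifen-inducible Cre driven by Cx3cr1, which is active in microglia and in other Cx3cr1-expressing myeloid cells. The groups were PRMT1FL on a normal diet (3 libraries, labelled 11 weeks), PRMT1Cx3cr1-KO on a normal diet (2, labelled 11 weeks), and 3 groups of 1 library each, labelled 5 weeks, on a diet containing cuprizone (CPZ, 0.2%), which binds copper, damages the myelin-forming oligodendrocytes and causes demyelination. The CPZ groups were PRMT1FL cells with low surface CD11c, PRMT1FL cells with high surface CD11c and PRMT1Cx3cr1-KO cells with low surface CD11c. The normal-diet labels name no CD11c gate. Diet, gate and labelled weeks therefore differ together between CPZ and normal diet, and their parts cannot be told apart below. The labels give mice of 4 to 6 weeks at the start, and do not say whether a library came from 1 animal or a pool, so the p-values measure the spread between these libraries, which may be technical. Because no CPZ group was replicated, the spread in every test came from the 5 normal-diet libraries, and the lone libraries were assumed to vary as those did.

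Cholesterol is built from acetyl-CoA through mevalonate, the isoprenoids, squalene and lanosterol. When sterols are low in the endoplasmic reticulum, SCAP escorts the transcription factor precursor SREBP-2, the product of Srebf2, to the Golgi, where it is cleaved and released to activate the genes of the pathway. INSIG proteins hold SCAP back when sterols are plentiful. In the demyelinated brain, microglia take up cholesterol-rich myelin debris, and they handle it by hydrolysis, esterification, oxidation and export.

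SREBP proteins bind short sterol regulatory elements near the starts of their target genes, so the promoters of the members were read for them. RefSeq windows (GRCm38.p6, 250 bases before to 50 after the start) matched 5 of the 7 genes, and Sqle and Fdft1 had no entry. The consensus TCACNCCAC, searched on both strands, was found in 1.24% of 32851 promoters and, of the members, in Hmgcs1. The shorter TCACCNCA has its free base at another position, and its match in Hmgcs1 overlaps that of the consensus. Because it was chosen after the windows had been read, its count in the members cannot be set against its share of all promoters. It was found in 4.42% of promoters and in 3 of the 5 members, Hmgcs1, Srebf2 and Cyp51. Those windows are shown because they belong to the members with a match, with the shorter element in capitals. They lie at chr13:119690101-119690400 (plus strand), chr15:82147019-82147318 (plus strand) and chr5:4104648-4104947 (minus strand).
Hmgcs1: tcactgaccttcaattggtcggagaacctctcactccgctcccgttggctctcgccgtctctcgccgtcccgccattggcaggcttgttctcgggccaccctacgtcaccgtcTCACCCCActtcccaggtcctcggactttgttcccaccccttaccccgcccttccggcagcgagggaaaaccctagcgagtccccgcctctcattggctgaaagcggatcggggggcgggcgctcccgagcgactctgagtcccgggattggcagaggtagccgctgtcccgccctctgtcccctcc
Srebf2: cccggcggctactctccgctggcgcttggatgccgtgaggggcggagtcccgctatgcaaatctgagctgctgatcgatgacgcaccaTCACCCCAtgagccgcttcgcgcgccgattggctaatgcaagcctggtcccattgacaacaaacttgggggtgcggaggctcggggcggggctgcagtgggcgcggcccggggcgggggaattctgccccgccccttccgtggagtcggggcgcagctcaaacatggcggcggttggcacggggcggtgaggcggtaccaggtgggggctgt
Cyp51: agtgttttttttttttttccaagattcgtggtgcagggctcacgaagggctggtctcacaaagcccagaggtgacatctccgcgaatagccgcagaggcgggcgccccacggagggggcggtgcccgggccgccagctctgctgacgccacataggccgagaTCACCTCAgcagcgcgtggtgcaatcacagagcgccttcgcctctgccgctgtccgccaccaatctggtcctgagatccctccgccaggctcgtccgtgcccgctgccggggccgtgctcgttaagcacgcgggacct
The element starts 137 bases before the annotated start in Hmgcs1, 162 in Srebf2 and 88 in Cyp51. CCAAT was found in 37.4% of promoters and GGGCGG in 35.7%, and both were in all 5 member windows. A match is a description of the letters only.

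Values are scaled reads, that is, whole reads recovered from the deposited values and divided by a median-of-ratios factor for each library. The joined libraries held 1577315 to 3512818 reads, the fewest in PRMT1FL CPZ CD11c high, so counting error was largest there. Microglial markers were high everywhere but not level. The 8 genes summed to 9429.5 to 12649.7 scaled reads in PRMT1FL and 8938 to 9540 in PRMT1Cx3cr1-KO on normal diet. On CPZ they summed to 7988.86 in PRMT1FL CD11c low, 14936.9 in CD11c high and 9882.4 in knockout CD11c low. The lowest and the highest sums were thus those of the PRMT1FL CPZ libraries. Prmt1 was at 89.7 ± 2.96 scaled reads (SD, n = 3) in PRMT1FL and 71.7 ± 15.5 (SD, n = 2) in PRMT1Cx3cr1-KO on normal diet, a log2 fold of -0.34 that was not called (limma, adjusted p = 0.611), and at 118.0 and 81.0 in the CD11c low cells on CPZ. Whether reads outside a deleted part of Prmt1 were counted is not known. Itgax, the gene of CD11c, was at 660.3 in PRMT1FL CD11c low, 1883.2 in CD11c high and 347.6 in knockout CD11c low, against 50.4 to 79.3 on normal diet. Markers of other cells also moved. The 8 endothelial and mural genes summed to 445.6 to 565.0 on normal diet and 971.5 to 1439.3 on CPZ. The 6 neutrophil genes summed to 173.6 to 404.7 on normal diet, 509.4 in PRMT1FL CD11c low, 41.0 in CD11c high and 5.71 in knockout CD11c low. The 8 astrocyte genes summed to 964.6 to 1044.3 in PRMT1FL and 1213.6 to 1306.0 in PRMT1Cx3cr1-KO on normal diet, and 944.8 to 1517.7 on CPZ. The 8 oligodendrocyte genes summed to 941.3 to 1364.0 on normal diet, 1576.0 in PRMT1FL CD11c low, 1013.9 in CD11c high and 817.2 in knockout CD11c low. The 3 oligodendrocyte progenitor genes summed to 28.7 to 73.4 on normal diet and 1123.3 to 1769.6 on CPZ. Among these 3, Cspg4 ran from 10.7 to 1721.0 and Ptprz1 from 17.2 to 68.0 over the libraries. Pdgfra, the defining gene of these progenitors, stayed at 0.82 to 5.86, resting on 1 to 5 reads per library. In its single-cell data, the study lists Cspg4 among the transcripts enriched in a phagocytic microglia cluster on CPZ. The 7 monocyte and border macrophage genes summed to 359.3 to 646.6 on normal diet and 181.7 to 404.8 on CPZ, and the 6 neuron genes to 27.99 to 33.6 and 20.0 to 58.3. The part of these cells in the results below was not tested, and in bulk RNA fewer cells of a type and less RNA per cell cannot be told apart.

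The members spanned a wide range of expression. On a scale of RPKM (reads per kilobase of transcript, relative to the reads of the library), as means of the 8 libraries, Insig1 was highest at 25.2, followed by Srebf2 at 23.2, Hmgcs1 at 17.9, Cyp51 at 7.72, Fdft1 at 4.26, Sqle at 1.33 and Idi1 at 0.155. The library ranges of Insig1 (19.8 to 31.4) and Srebf2 (19.8 to 28.6) overlapped, as did those of Srebf2 and Hmgcs1 (14.2 to 23.9) and of Cyp51 (5.78 to 11.8) and Fdft1 (3.16 to 6.44). Hmgcs1 stood above Cyp51 in all libraries, and Sqle (0.697 to 2.13) and Idi1 (0 to 0.326) stood below Fdft1.

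**Figure D1:**
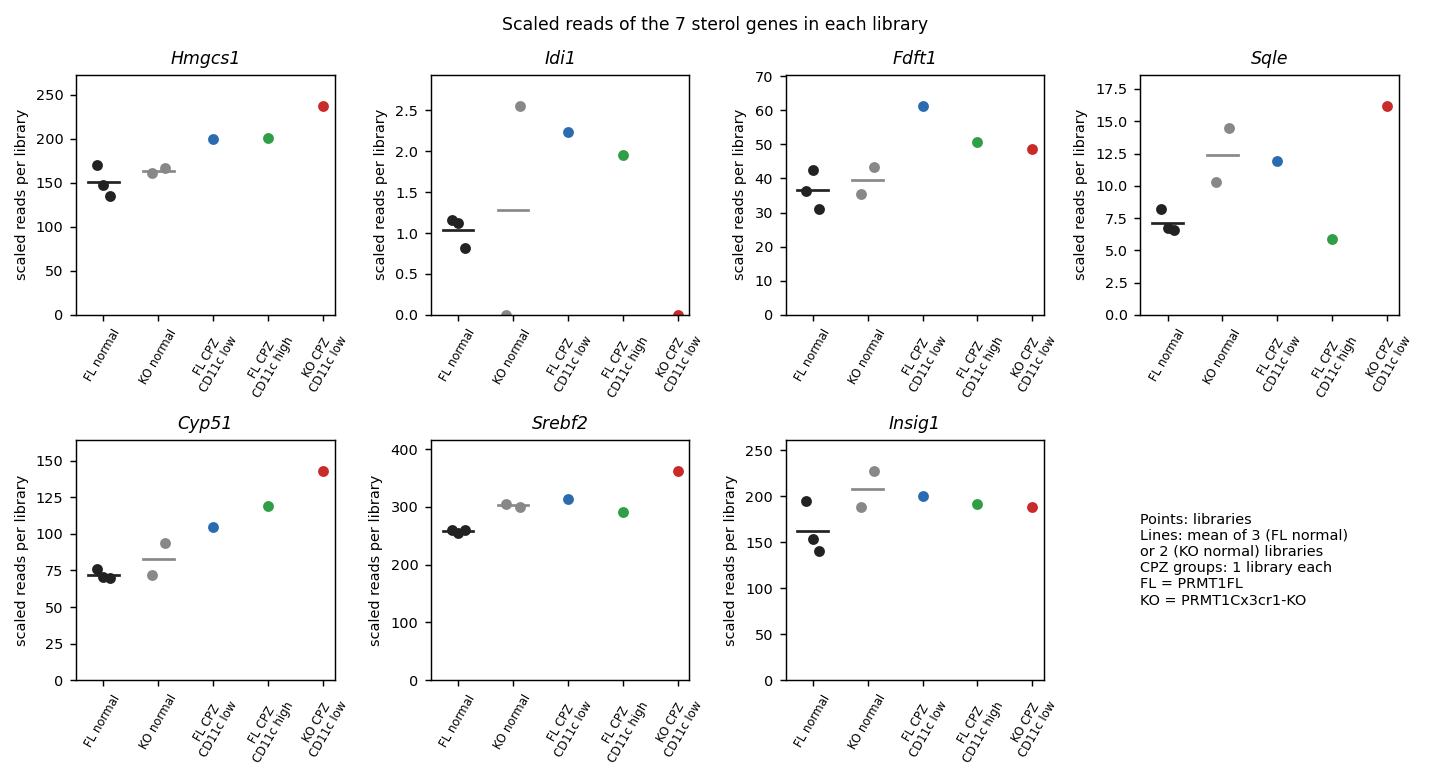
Scaled reads (y axis, from 0, a separate scale per gene) of the 7 members in the 8 libraries, by group (x axis). Points are libraries and lines are the means of the normal-diet groups. Hmgcs1, Fdft1 and Cyp51 lie higher in the 3 CPZ libraries than in the 5 normal-diet libraries, and Idi1 never exceeds 3 reads.

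Hmgcs1 encodes the cytosolic synthase that makes HMG-CoA, an early intermediate of the pathway. It lies on chromosome 13 (119690351 to 119708260, plus strand, GRCm38). Its scaled reads were 170.3, 147.8 and 135.2 in PRMT1FL and 161.0 and 166.1 in PRMT1Cx3cr1-KO on normal diet, and 199.4 in PRMT1FL CD11c low, 201.2 in CD11c high and 237.2 in knockout CD11c low on CPZ. All 3 CPZ libraries were above all 5 normal-diet libraries, and the genotypes on normal diet overlapped. The log2 fold on CPZ was 0.53 in PRMT1Cx3cr1-KO CD11c low (95% interval 0.18 to 0.89, limma, adjusted p = 0.0439), 0.40 in PRMT1FL CD11c low (0.07 to 0.74, adjusted p = 0.0672) and 0.42 in CD11c high (0.08 to 0.75, adjusted p = 0.0523). The first adjusted p rose to 0.0537 to 0.12 when any 1 normal-diet library other than PRMT1FL replicate 1 was left out, and to 0.143 without the low-value filter and 0.343 with DESeq2. The adjusted p in CD11c high fell to 0.017 without PRMT1FL replicate 1.

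Idi1 (chromosome 13, 8885606 to 8892396, plus strand) encodes the isopentenyl diphosphate isomerase. It had 10 reads over all libraries, at most 3 in any, with 1 read in each PRMT1FL library on normal diet, and 0 in 1 PRMT1Cx3cr1-KO normal-diet library and in PRMT1Cx3cr1-KO CD11c low. No difference was detectable at this depth. Its paralog Idi2 had no read in any library.

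Fdft1 (chromosome 14, 63145151 to 63179578, minus strand) encodes squalene synthase, the first enzyme committed to sterols. It had 36.2, 42.5 and 31.1 scaled reads in PRMT1FL and 35.5 and 43.4 in PRMT1Cx3cr1-KO on normal diet, then 61.2, 50.8 and 48.6 on CPZ (PRMT1FL low, PRMT1FL high and PRMT1Cx3cr1-KO low for CD11c). The CPZ libraries were again all above the normal-diet ones. The log2 fold in PRMT1FL CD11c low was 0.74 (95% interval 0.10 to 1.38, limma, adjusted p = 0.0767) and did not pass. Its last 773 bases share the genome with the opposite-strand Ctsb, the gene of a lysosomal protease, and since the strand setting of the counting is not stated its reads are uncertain. Ctsb was at 2189.2, 4288.1 and 2644.9 scaled reads in the same 3 CPZ libraries. On normal diet it was at 1820 to 2318 in PRMT1FL and 1879 to 1999 in PRMT1Cx3cr1-KO. The part of Ctsb in the Fdft1 reads was not tested.

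Sqle (chromosome 15, 59315092 to 59331193, plus strand) encodes squalene epoxidase, a rate-controlling enzyme. Only 3 to 17 reads per library were counted. Scaled reads were 8.2, 6.7 and 6.6 in PRMT1FL and 10.3 and 14.5 in PRMT1Cx3cr1-KO on normal diet, and 12.0 in PRMT1FL CD11c low, 5.9 in CD11c high and 16.2 in knockout CD11c low. Both knockout libraries on normal diet were above the 3 controls (log2 fold 0.70, 95% interval -0.22 to 1.62, limma, adjusted p = 0.652). On CPZ the knockout to PRMT1FL CD11c high log2 fold was 1.33 (-0.10 to 2.75, adjusted p = 0.22), resting on 17 reads against 3, a ratio of 2.76 with an exact 95% counting interval of 0.799 to 14.7. These intervals reach more than a log2 fold of 1 in either test, so neither equality nor a difference was shown.

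Cyp51 (chromosome 5, 4080674 to 4104697, minus strand) encodes lanosterol 14-alpha-demethylase. Its scaled reads were 75.8, 70.5 and 69.7 in PRMT1FL and 71.8 and 93.7 in PRMT1Cx3cr1-KO on normal diet. On CPZ they were 104.6 in PRMT1FL CD11c low, 119.2 in CD11c high and 142.9 in knockout CD11c low, all above normal diet. The log2 fold was 0.72 in PRMT1FL CD11c high (95% interval 0.27 to 1.17, limma, adjusted p = 0.0172) and 0.79 in knockout CD11c low (0.32 to 1.27, adjusted p = 0.0283). In PRMT1FL CD11c low it was 0.53 (0.09 to 0.98, adjusted p = 0.0681). With DESeq2 the adjusted p of the first comparison was 0.209 and of the second 0.255, and without the low-value filter they were 0.0644 and 0.101. The first was also lost when fitted within its own table (adjusted p = 0.0557). Without 1 normal-diet library the second lost its side of the threshold when PRMT1FL replicate 3 (adjusted p = 0.0509) or PRMT1Cx3cr1-KO replicate 1 (0.113) was left out.

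Srebf2 (chromosome 15, 82147269 to 82204960, plus strand), the gene of SREBP-2, hosts the microRNA gene Mir33. It had 260.1, 254.1 and 259.8 scaled reads in PRMT1FL and 305.4 and 299.9 in PRMT1Cx3cr1-KO on normal diet, and 313.7, 291.1 and 361.9 in the CPZ libraries in the same order. The genotypes did not overlap on normal diet, by a log2 fold of 0.23 (95% interval 0.04 to 0.42, limma, adjusted p = 0.536). PRMT1FL CD11c high lay below both knockout normal-diet libraries. The log2 fold on CPZ was 0.28 in PRMT1FL CD11c low (0.04 to 0.52, adjusted p = 0.0741), 0.17 in CD11c high (-0.07 to 0.41, adjusted p = 0.235) and 0.26 in knockout CD11c low (0.0018 to 0.51, adjusted p = 0.146). Without the low-value filter these adjusted p were 0.0187, 0.0411 and 0.0411, and that of the knockout against PRMT1FL CD11c high was 0.0382 (0.168 with the filter).

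Insig1 (chromosome 5, 28071412 to 28078662, plus strand) encodes the sterol sensor partner that retains SCAP, and is itself an SREBP target. Scaled reads were 194.8, 153.4 and 140.2 in PRMT1FL and 188.6 and 227.5 in PRMT1Cx3cr1-KO on normal diet, and 200.2, 191.4 and 188.6 in the CPZ libraries in the order above. PRMT1FL CD11c low lay above the 3 PRMT1FL normal-diet libraries and CD11c high among them, and knockout CD11c low was level with the lower knockout normal-diet library. The genotypes overlapped on normal diet. The log2 fold of the genotypes on normal diet was 0.36 (95% interval 0.03 to 0.69, limma, adjusted p = 0.559), and the genotype by CPZ interaction was -0.45 (-1.05 to 0.16, adjusted p = 0.436).

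**Figure D2:**
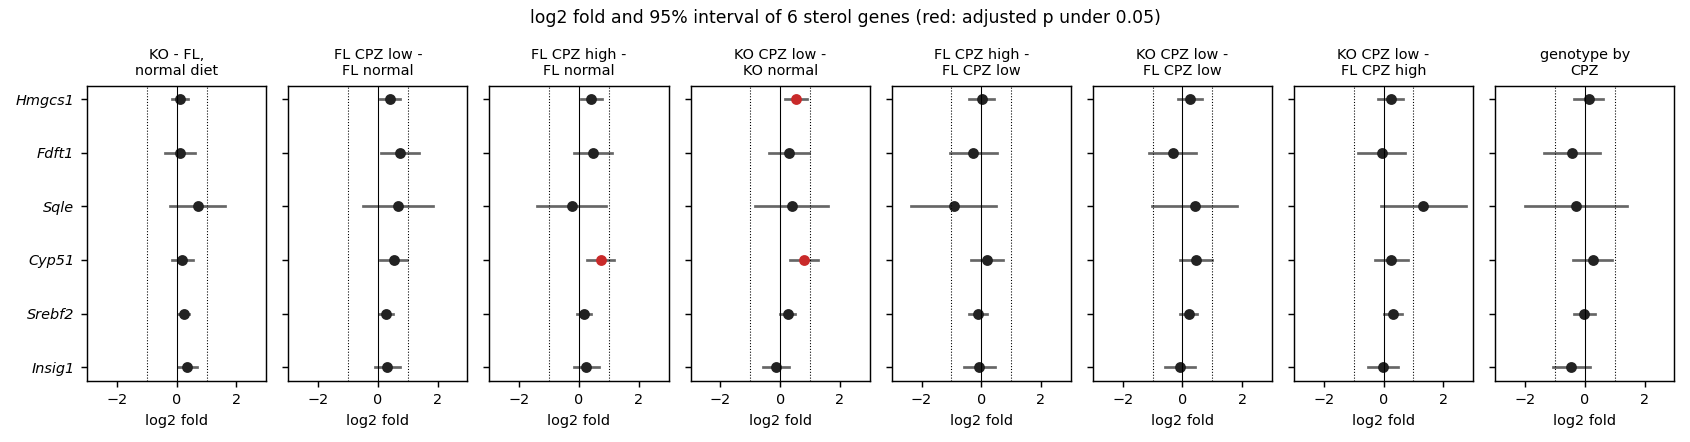
log2 fold (x axis) of 6 members (y axis) in 8 comparisons, as points with 95% intervals; FL is PRMT1FL, KO is PRMT1Cx3cr1-KO, low and high are CD11c, and dotted lines mark -1 and 1. The 3 red points, 1 of Hmgcs1 and 2 of Cyp51, have adjusted p under 0.05, and no point in red reaches a log2 fold of 1.

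None of the 6 tested members passed both thresholds (a log2 fold beyond 1 in either direction at adjusted p under 0.05) in any comparison by limma, edgeR or DESeq2. Over 48 values of 6 genes in 8 comparisons, 3 had limma adjusted p under 0.05 and 12 had unadjusted p under 0.05. Of all genes, 0% were called for genotype on normal diet, where 967 had unadjusted p under 0.05, edgeR called 0 and DESeq2 3. The share called was 12.8% for CPZ in PRMT1FL CD11c low, 16.3% in CD11c high and 8.48% in knockout CD11c low. It was 1.92% for the CD11c gate, 2.17% for genotype among CD11c low cells, 3.86% for PRMT1Cx3cr1-KO CD11c low against PRMT1FL CD11c high and 0.864% for the interaction. With adjusted p alone, 0 of 6 members passed in PRMT1FL CD11c low (31.1% of all genes), 1 in CD11c high (37.9%, Cyp51) and 2 in the knockout CPZ library (18.7%, Hmgcs1 and Cyp51). In PRMT1FL CD11c low, 4 of 6 passed with edgeR (Hmgcs1, Fdft1, Cyp51 and Srebf2, adjusted p = 0.0341, 0.044, 0.0414 and 0.0448), where 33.9% of all genes did. Total-read scaling gave 3 of 6 there (Hmgcs1, Cyp51 and Srebf2, limma, adjusted p = 0.0238, 0.0419 and 0.0278), beside 29.3%. Each of these 4 members was far above the adjusted p threshold in some other setting, so neither count held throughout. In the other comparisons 0 of 6 passed in the limma fit, beside 0% for genotype on normal diet, 4.19% for the gate, 3.8% for genotype among CD11c low cells, 8.46% for the knockout against PRMT1FL CD11c high and 0.899% for the interaction. At unadjusted p under 0.05 there were 2 members for genotype on normal diet (8.61% of all genes), 4 for CPZ in PRMT1FL CD11c low (42.8%), 2 in CD11c high (47.2%) and 3 in the knockout (33.7%). For the gate there was no member (23.2%), as for genotype among CD11c low cells (22%) and the interaction (17.5%), and for the knockout against CD11c high there was 1 (26.1%). The 3 members with all CPZ libraries above all normal-diet libraries stand beside 19% of all genes, and no member was below in all of them (17.1% of all genes). All CPZ libraries were above the PRMT1FL normal-diet libraries in 4 of 6 members (21.8%), and both knockout normal-diet libraries in 2 of 6, Sqle and Srebf2 (12.3%). The intervals of 32 of the 48 values lay within a log2 fold of -1 to 1, and 16 reached one of these limits. The CPZ comparisons of PRMT1FL share their control libraries.

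Few of the other enzymes of the pathway passed the test. Of 15 listed enzymes that are not members, 14 were tested, since Pmvk was not in the joined table. None was called on CPZ. By adjusted p alone, 1 was higher and 1 lower in PRMT1FL CD11c low, 1 and 1 in CD11c high, and 1 and 2 in the knockout CPZ library, beside the 31.1%, 37.9% and 18.7% of all genes. Their median log2 folds were -0.08, -0.28 and 0.08, against -0.03, -0.01 and -0.01 over all genes. The highest log2 folds of the 14 were 1.22 in PRMT1FL CD11c low and 1.21 in CD11c high, both of Fdps. Neither passed on adjusted p, and Fdps had only 7 to 29 reads per library. Dhcr7, the last reductase of the pathway, rose by 0.74, 0.86 and 0.61 (limma, adjusted p = 0.00281, 0.000699 and 0.0145). Lbr, a sterol reductase that is also the lamin B receptor of the nuclear envelope, was lower, by -0.85, -0.98 and -0.52 (adjusted p = 0.000798, 0.00016 and 0.0195). Nsdhl, a sterol dehydrogenase, was lower in PRMT1Cx3cr1-KO CD11c low (-0.82, adjusted p = 0.048). In the knockout comparison these 3 results depended on the processing. With DESeq2 the adjusted p was 0.188 for Dhcr7, 0.279 for Lbr and 0.351 for Nsdhl. That of Dhcr7 was 0.0628 without PRMT1Cx3cr1-KO replicate 2 and 0.0611 without the low-value filter, and that of Lbr 0.0807 without PRMT1Cx3cr1-KO replicate 1. Nsdhl also lost its side of the threshold with edgeR (0.0547), TMM (0.0537), total-read scaling (0.0608) and no filter (0.145), and when any 1 normal-diet library other than PRMT1FL replicate 1 was left out (0.052 to 0.133).

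**Figure D3:**
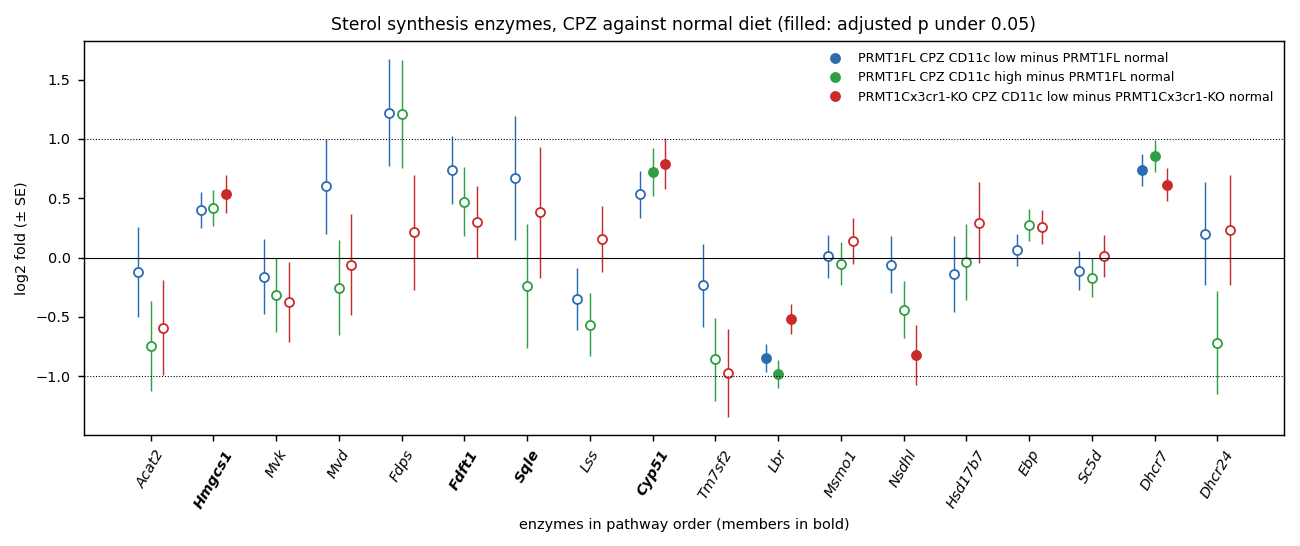
log2 fold (y axis, ± SE) of CPZ against the normal diet of the same genotype for 18 sterol synthesis enzymes in pathway order (x axis, members in bold). Filled points have adjusted p under 0.05: Hmgcs1, Cyp51 and Dhcr7 are above 0 and Lbr and Nsdhl below it.

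The remaining regulators, and the genes of sterol handling and fatty acid synthesis, were compared on CPZ in the same order of libraries, where 12.8%, 16.3% and 8.48% of all genes were called in either direction. Srebf1, the gene of the SREBP-1 factors that drive fatty acid synthesis, was higher by 0.79, 0.73 and 0.84 (limma, adjusted p = 0.000676, 0.00056 and 0.00103), under the fold threshold, while Scap gave -0.03, -0.04 and -0.05. Of 5 tested genes of sterol uptake and transfer, 0, 2 and 0 were called higher and none lower. The 2 in CD11c high were Npc2 (1.13) and Lipa (1.21), which bind and free cholesterol in lysosomes. Of 5 tested genes of efflux and esterification, 1, 4 and 1 were called higher. Ch25h, which makes 25-hydroxycholesterol, had 5.6 to 12.8 scaled reads in PRMT1FL and 3.9 and 9.4 in PRMT1Cx3cr1-KO on normal diet. On CPZ it had 392.9, 549.0 and 553.4. Against the normal diet of the same genotype these were log2 folds of 5.21, 5.69 and 6.27, over baselines of only 5 to 15 reads per library. The exporters Abca1 (1.24) and Abcg1 (1.21) and the esterifying enzyme Soat1 (1.51) were called in PRMT1FL CD11c high. Of 8 fatty acid synthesis genes, 3, 2 and 3 were called higher and 0, 1 and 1 lower. Acaca, acetyl-CoA carboxylase, rose by 2.75, 3.30 and 2.39 and Scd2, a desaturase, by 1.10, 1.72 and 1.38. Fads2 (2.05) was called in PRMT1FL CD11c low and Fasn (1.19) in PRMT1Cx3cr1-KO CD11c low, and Elovl6 was lower in CD11c high (-1.60) and in the knockout CPZ library (-1.99). The Fads2 call was lost with DESeq2 (adjusted p = 0.0825) and without the low-value filter (0.127), and the Abca1 call without the filter (0.0891). The Elovl6 calls were lost with DESeq2 (0.419 and 0.291), without the filter (0.0553 and 0.0727) and without PRMT1FL replicate 2 (0.0667 and 0.0539) or 3 (0.0692 and 0.0595). The first was also lost with edgeR (0.132) and the second without PRMT1Cx3cr1-KO replicate 1 (0.0549). The Npc2 log2 fold was 0.99 under total-read scaling and in its single-table fit.

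**Figure D4:**
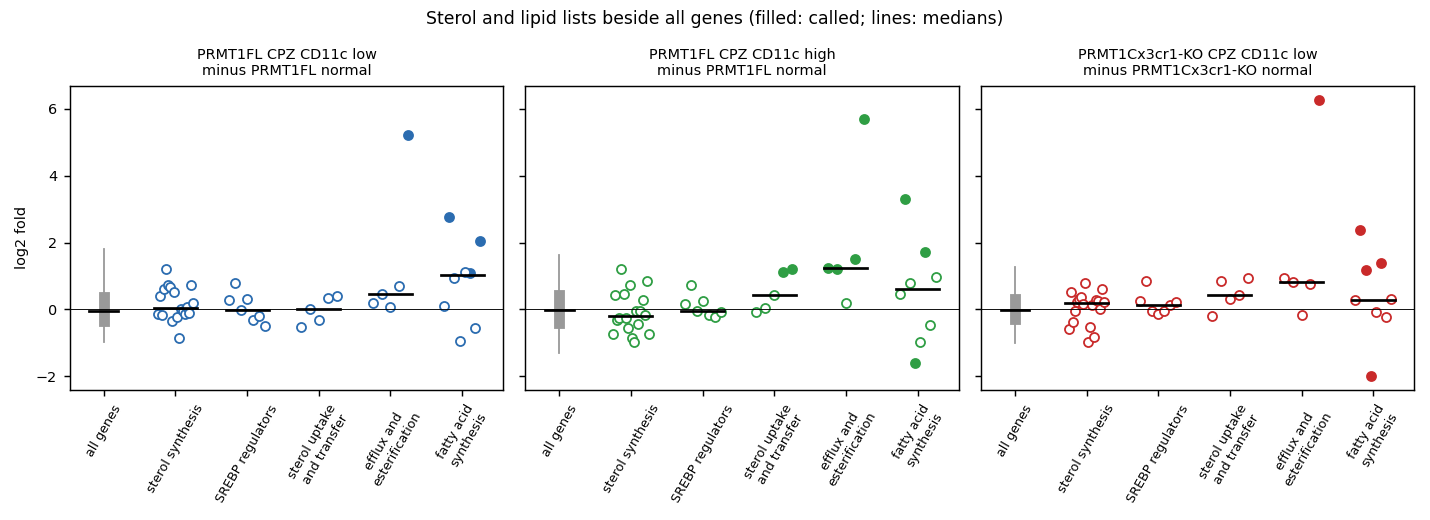
log2 fold (y axis) of CPZ against the normal diet of the same genotype, for 5 gene lists and all 11232 genes (x axis). Filled circles are called genes, lines are medians, and the grey bars for all genes span the 25th to 75th and the 5th to 95th percentiles. The sterol synthesis circles are all open, while Ch25h and Acaca lie far above 0 in the 3 panels.

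By Pearson correlation over the 8 libraries with the mean profile of the members, the most alike of 8517 genes with at least 50 scaled reads were Abhd5 (0.951), Slc35f5 (0.944), Tubb4b (0.909), Phldb1 (0.902) and Tfrc (0.895), the transferrin receptor gene. The points share libraries and diet groups, and 4 genes exceeded 0.9. Each of the 7 members had equal weight in the profile, including Idi1, which did not pass the filter on low values. The member profile, in units of SD, was -1.09 to -0.34 in PRMT1FL and -0.40 and 0.55 in PRMT1Cx3cr1-KO on normal diet. On CPZ it was 0.81 in PRMT1FL CD11c low, 0.34 in CD11c high and 0.84 in knockout CD11c low.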

How the data were processed

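RNA-seq libraries of sorted microglia were used (8 libraries, 5 groups, assigned by title). According to the study's methods and processing notes, the authors trimmed single-end reads, mapped them by Bowtie2 and used SAMtools (0.1.19) to drop duplicates and HOMER to count reads per gene, with no strand setting stated. The build is given as hg19, GRCm38 and mm10 in different places, and the coordinates are mouse (GRCm38). The signal values in the deposited tables are reads scaled by 1 factor per column to a common total per table. The deposited DESeq2 fold changes and p-values were not used. Whole reads were recovered from the step of each column (100% of low values whole within 0.1). Of 25238 shared genes, 81 were left out because their reads disagreed among tables (beyond both 1 read and 5%), a tolerance set after data had been seen.

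The main test was 1 limma 3.58.1 fit (R 4.3.3, eBayes with trend, two-sided, Benjamini-Hochberg over 11232 genes) of all 8 libraries on log2(scaled reads + 1), where the mean was 10 or more, so a fold understates changes of low genes. Calls needed a log2 fold beyond 1 in either direction and an adjusted p under 0.05. The plan had expected size-factor scaled values. Alternatives were TMM and total-read scaling, a pseudocount of 5, no filter, edgeR 4.0.16, DESeq2 1.42.0, single-table fits, a replicate block and leaving out each normal-diet library. The fit was also run on simulated data with the same spread in all groups. That run could not test whether the lone CPZ libraries vary as the normal-diet ones did. Counting intervals are exact 95% intervals and cover counting error only. Named genes were the 7 members, genes of 5 sterol and lipid lists called in any of 8 comparisons, Srebf1 and Scap whatever their values, Prmt1, Itgax and markers as checks, and the 5 most alike genes. Genes outside that rule (Dhcr7, Fdps, Lbr, Nsdhl, Ctsb and Idi2) were named after their values were seen. The members and lists were chosen with earlier results of these data known. Of the listed genes, 3 are not reported here, and the list counts and medians were recomputed without them after their values had been seen. Promoter sequences are from RefSeq (GRCm38.p6).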

Additional observations from a re-analysis of the deposited data

How the results depend on the processing

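No member was called under any alternative in which it was examined. Idi1 was not examined in the fit without the low-value filter. Sqle, at a mean of 10.02 scaled reads, lay at the edge of the filter of 10, and was tested only where it passed. Counts of called genes moved by more than 1.5 times in several comparisons, and the cause was not tested. Without the low-value filter, 12 genes were called for genotype on normal diet (0 in the reported fit), 575 for the CD11c gate (216), 495 for CPZ in PRMT1Cx3cr1-KO (952) and 288 for the interaction (97). With edgeR, 467 were called for genotype among CD11c low cells (244) and 233 for the interaction. With DESeq2, 3 were called for genotype on normal diet, 92 for the CD11c gate, 128 for genotype among CD11c low cells, 180 for PRMT1Cx3cr1-KO CD11c low against PRMT1FL CD11c high (433) and 634 for CPZ in PRMT1Cx3cr1-KO. Leaving out 1 normal-diet library gave 0 to 37 for genotype on normal diet (37 without PRMT1Cx3cr1-KO replicate 2), 135 to 366 for the CD11c gate, 169 to 486 for genotype among CD11c low cells and 20 to 200 for the interaction. Total-read scaling shifted the median of all genes by up to -0.23 (CD11c gate) and moved the higher share of calls from 35.6% to 3.9% there, from 55.6% to 44.6% for CPZ CD11c high (43.0% in its single-table fit), from 44.7% to 29.6% for genotype among CD11c low cells and from 64.7% to 81.5% for PRMT1Cx3cr1-KO CD11c low against PRMT1FL CD11c high. Other settings moved it too. For the CD11c gate it was 50.6% without the filter, 46.1% with edgeR and 67.4% with DESeq2. For PRMT1Cx3cr1-KO CD11c low against PRMT1FL CD11c high it was 29.4%, 52.2% and 43.3% in that order. Without the filter it was 15.2% for genotype among CD11c low cells. For the interaction (16.5%) it was 6.25% without PRMT1FL replicate 2 and 37.4% without replicate 3.

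The log2 folds that changed sign were all under 0.25 in size. With TMM they were Insig1 0.0127 (PRMT1Cx3cr1-KO CD11c low against PRMT1FL CD11c high) and Srebf2 0.0084 (interaction). With total-read scaling they were Hmgcs1 -0.24 and Cyp51 -0.063 (CD11c gate), Fdft1 0.076 and Insig1 0.12 (PRMT1Cx3cr1-KO CD11c low against PRMT1FL CD11c high) and Scap 0.0848 (CPZ in PRMT1FL CD11c low, 0.0849 in the single-table fit). Hmgcs1 was -0.031 with edgeR and -0.00347 with DESeq2 (CD11c gate), and Scap 0.000475 with edgeR (CPZ in PRMT1FL CD11c low). Leaving out 1 library gave -0.034 to 0.248 for Fdft1 and -0.00533 to 0.372 for Cyp51 (genotype on normal diet), both negative without PRMT1Cx3cr1-KO replicate 2, and -0.268 to 0.00112 for Insig1 (CPZ in PRMT1Cx3cr1-KO). For Scap it gave -0.111 to 0.0342, -0.125 to 0.0218 and -0.139 to 0.0424 for CPZ in PRMT1FL CD11c low, CD11c high and PRMT1Cx3cr1-KO.

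The replicate block for genotype on normal diet called 0 genes, and same-numbered libraries did not deviate together (r of 0.04 and -0.03 over 11232 genes), so the numbers were not taken as pairs. Depth limits Sqle and Idi1 most.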
